A study of Mus musculus with 6 samples.

Results

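The genes described here encode the subunits of respiratory complexes II, III and IV and of ATP synthase (complex V), with cytochrome c, the carrier between complexes III and IV, and Cox7a2l, a factor that joins complexes III and IV into supercomplexes. They were chosen by symbol: 47 genes of the 28786 in the deposited table, 41 of the nuclear and 6 of the mitochondrial genome. Of the 47, 46 passed the filter on low counts, and Atp5g2 was listed at 0 in every library. RNA was measured in haematopoietic stem cells (HSCs) from the bone marrow of C57BL/6 mice, wild type and 6 to 8 weeks old, with no treatment named. The cells carried no lineage markers, were positive for Sca-1, c-Kit and CD150 and negative for CD48, and were split by TMRM, a fluorescent dye taken up more by mitochondria of higher membrane potential. There were 3 TMRM-high and 3 TMRM-low libraries of 1500 cells each. The labels do not say whether the libraries within a group are from different mice, and a p-value here covers the spread of these libraries alone.

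Electrons from succinate enter the chain at complex II, pass through complex III and cytochrome c, and reach oxygen at complex IV. Complexes III and IV pump protons across the inner membrane, and ATP synthase lets them return through its membrane rotor while its F1 head makes ATP. Complex II is encoded in the nucleus alone, whereas complexes III, IV and V each combine nuclear subunits with subunits encoded on mitochondrial DNA. HSCs are known for relying less on respiration than the progenitors they give rise to.

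The libraries held 14269936 to 22070478 counts. The 3 TMRM-high libraries stood closer together than the TMRM-low ones. This was measured by the chi-square per degree of freedom between libraries, over all genes but the least counted. It was 3.98 to 6.74 for TMRM-high pairs and 46.0 to 51.4 for TMRM-low pairs, so no 2 libraries agreed within the noise of read sampling alone. Amplification was not allowed for, and these values cannot show whether libraries of a group share material. Over the members alone, where the abundant mitochondrial genes weigh most, the chi-square per member, with library sizes scaled by TMM, was 4.13 between TMRM-high replicates 2 and 3, but 88.3 and 69.8 between replicate 1 and each of them and 64.7 between replicate 1 and TMRM-low replicate 3. TMRM-low pairs were at 87.9 to 190 on that scale. Over the 46 tested members the median coefficient of variation was 3.26% among TMRM-high and 7.50% among TMRM-low libraries, with the larger value in TMRM-low for 41 of 46. Against the labelled cell type, RNA of Cd48 was present in both groups, although the cells were sorted as negative for CD48. Its mean was 147 ± 2.82 CPM (counts scaled to a common library size) for TMRM-high, beside 137 ± 22.6 for TMRM-low (SD). Slamf1, which encodes CD150, had means of only 5.53 ± 0.569 and 5.13 ± 3.98 CPM. Kit, which encodes c-Kit, had 263 ± 4.94 and 248 ± 53.9 CPM. For all of these the groups overlapped. Ly6a, which encodes Sca-1, was lower in TMRM-high (30.3 against 167 CPM), as were 4 of 10 HSC identity genes. Mecom, Meis1 and Hoxa9 were present in both groups. Markers of other cells differed too: of 12 granulocyte and monocyte genes 11 were higher in TMRM-high (summed level 15634 to 16040 against 3718 to 4086 CPM), of 9 B lymphoid genes 9 (505 to 509 against 42.8 to 45.8 CPM), of 10 erythroid genes 6 (233 to 261 against 54.6 to 67.7 CPM) and of 7 basophil and mast cell genes 3 (271 to 280 against 56.2 to 70.5 CPM). Of 8 tested T and NK genes 1 was higher and 5 were lower (605 to 615 against 367 to 446 CPM summed over the list, and 52.8 to 56.0 against 176 to 208 CPM without Nkg7, the gene that was higher). The part of these cells in the results below was not tested, and in bulk RNA fewer cells of a type and less RNA per cell cannot be told apart.

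Of the 46 tested members, 3 were higher in TMRM-high cells, Uqcrb, Cycs and mt-Atp6, and 3 were lower, Atp5a1, Atp5c1 and Atp5d, in edgeR's quasi-likelihood test, with the adjusted p (Benjamini-Hochberg, all genes) under 0.05. The other 40 did not pass. That is 13.0% of the members called, beside 11% of all 13662 genes tested (5.84% higher, 5.12% lower). All differences were small: log2 fold changes ran from -0.42 to 0.46, and 31 of 46 lay within 0.2 of 0, against 31.1% of all genes. The median was -0.05, beside -0.03 for all genes, with 15 members above 0 and 31 below. The groups did not overlap for 9 members that were higher in TMRM-high and 15 that were lower, against 18.4% and 17% of all genes. Both directions together make 24 of 46 members without overlap, against 35.4% of all genes, and 19 of 46 had an unadjusted p below 0.05 in that test, against 25.6%. Every tested member was at 67.3 CPM or more in every library, and these shares of all genes were not matched for level. None of the 6 calls held when any 1 TMRM-high library was left out or when those libraries were summed into 1, while the fold changes of the 6 kept their direction there.

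**Figure D1:**
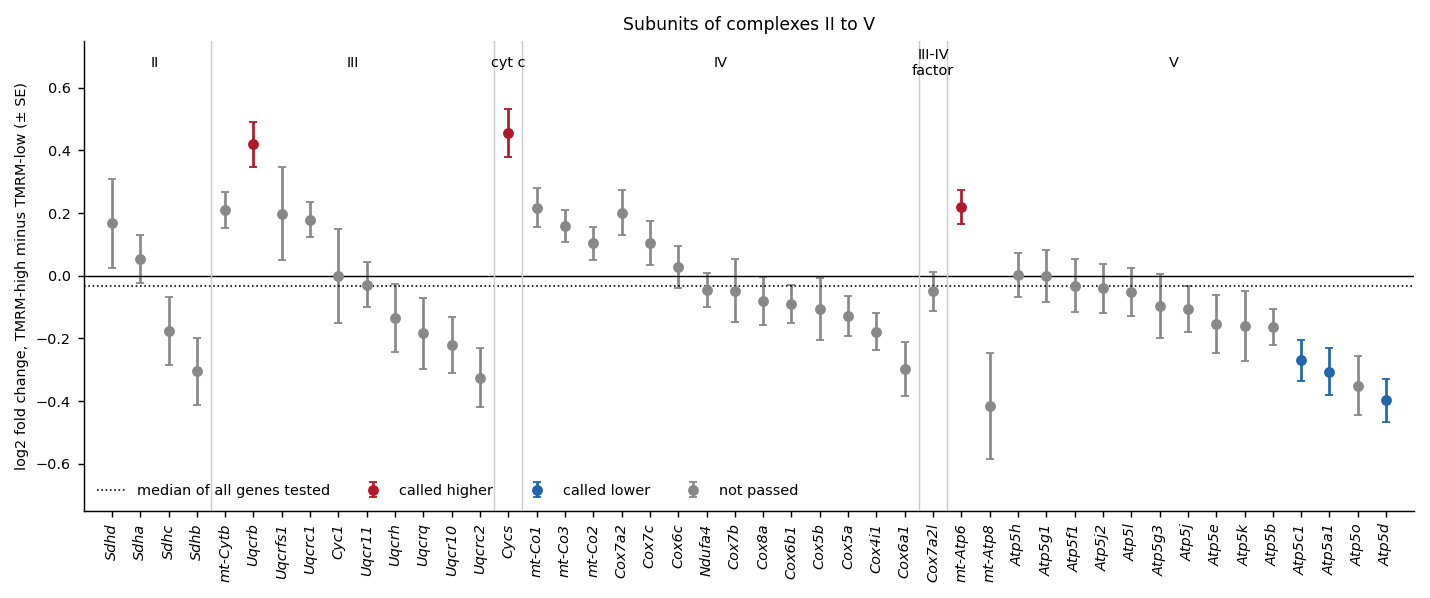
Log2 fold change of each tested member (TMRM-high minus TMRM-low, points) with its standard error (bars), grouped by complex. The 3 members called higher are in red and the 3 called lower in blue, and the dotted line marks the median of all genes tested at -0.03.

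**Figure D2:**
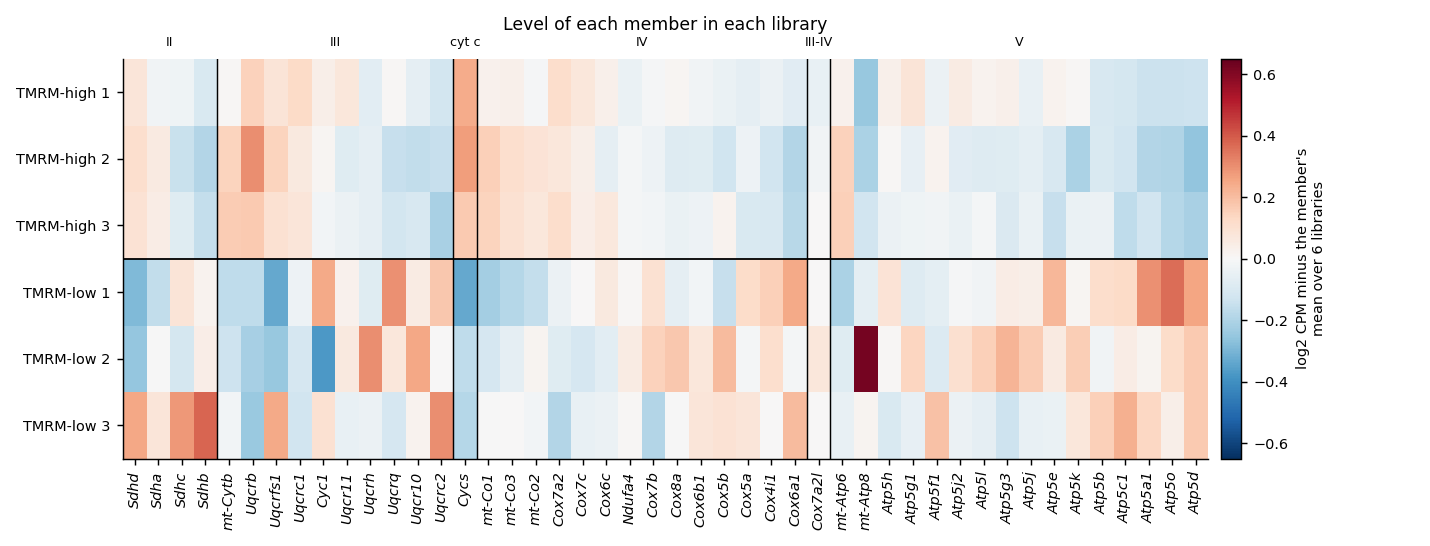
Level of each tested member in each of the 6 libraries, as log2 CPM minus the mean of that member over the 6 libraries. Among TMRM-high libraries the median coefficient of variation was 3.26%, among TMRM-low 7.50%, and the darkest cell is mt-Atp8 in TMRM-low replicate 2 at 607 CPM.

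Complex II oxidises succinate to fumarate and shares that reaction with the citric acid cycle. None of its 4 genes passed, beside 11% of all genes tested, and the median log2 fold change was -0.06. Sdhb, the iron-sulfur subunit, was at 189, 177 and 182 CPM in the 3 TMRM-high libraries and at 205, 209 and 264 CPM in the 3 TMRM-low libraries. All TMRM-high values lay below all TMRM-low values, but the difference did not pass (log2 fold change -0.30 ± 0.11 SE, adjusted p = 0.120 in edgeR's quasi-likelihood test), and without TMRM-low replicate 3 the log2 fold change was -0.18. Sdhd, a membrane anchor, was at 218, 223 and 220 CPM against 169, 174 and 246 CPM. Its groups overlapped through TMRM-low replicate 3, which was also highest for Sdhb and for the other anchor, Sdhc (157, 145 and 152 against 170, 148 and 195 CPM). The most abundant gene by CPM was Sdha, the flavoprotein that binds succinate, at 257, 273 and 270 CPM against 234, 261 and 276 CPM, with overlapping groups. Summed over the complex, the TMRM-high libraries held 818 to 825 CPM and the TMRM-low libraries 779 to 980 CPM, again overlapping.

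In complex III, which passes electrons from ubiquinol to cytochrome c, 1 of 10 genes was higher and none was lower. That is 10% called, beside 11% of all genes, with a median of -0.02. Uqcrb, a small nuclear subunit at the ubiquinone-binding side (GRCm38 chr13:66900617-66905378, minus strand), was at 234, 260 and 237 CPM in the TMRM-high libraries and at 188, 181 and 178 CPM in the TMRM-low ones. The lowest TMRM-high library was above the highest TMRM-low library, and the log2 fold change was 0.42 ± 0.07 (SE), a 1.34-fold difference (adjusted p = 0.0108 in edgeR's quasi-likelihood test). Without 1 TMRM-high library the adjusted p by that test was 0.0520 to 0.0828, and with the TMRM-high libraries summed it was 0.659. Of the 31-base words of the Uqcrb transcript, 58.2% also occur in other genes, mainly processed pseudogenes. The 2 closest copies held 2 counts in all over the 6 libraries, beside 23056 for Uqcrb, so adding them tests nothing about how reads were assigned. Uqcrb also overlaps Gm10767, a protein-coding gene on the opposite strand.

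The catalytic subunits of complex III did not pass. Cytochrome b, encoded by mt-Cytb and the only mitochondrially encoded subunit, was at 6756, 7434 and 7531 CPM against 6003, 6138 and 6646 CPM. These groups did not overlap, and the log2 fold change was 0.21 ± 0.06 (adjusted p = 0.0566, edgeR's quasi-likelihood test). The pair of core proteins differed in direction: Uqcrc1 was at 411, 393 and 397 against 367, 348 and 345 CPM, and Uqcrc2 at 150, 147 and 141 against 184, 164 and 201.5 CPM. Neither pair of groups overlapped, with log2 fold changes of 0.18 ± 0.06 and -0.33 ± 0.09 and adjusted p = 0.0881 and 0.0670 in edgeR's quasi-likelihood test. Uqcrc2 overlaps Pdzd9 on the opposite strand, and such libraries do not mark strand. The heme subunit gene Cyc1 was at 158 ± 3.12 CPM and 159 ± 33.6 CPM (SD, n = 3 each), and the iron-sulfur subunit gene Uqcrfs1 at 186 ± 4.12 and 162 ± 36.9 CPM.

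Cycs, the gene of cytochrome c, had the highest log2 fold change of all members. Its promoter is shown because the gene is called and because 2 motifs long described for cytochrome c were found in this window. In the 250 bases before the RefSeq start (GRCm38.p6, chr6:50566570-50566819, minus strand, read on the strand of the gene) the capitals mark a CRE, TGACGTCA, 169 to 162 bases before the start, and an NRF-1 motif, GCATGCGC, 60 to 53 bases before it:
Cycs promoter: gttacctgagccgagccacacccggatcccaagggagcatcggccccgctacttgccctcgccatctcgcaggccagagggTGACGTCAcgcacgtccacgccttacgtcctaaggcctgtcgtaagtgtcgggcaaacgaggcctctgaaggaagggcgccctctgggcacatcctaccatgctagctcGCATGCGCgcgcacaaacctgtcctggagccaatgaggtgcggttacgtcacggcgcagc

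The motifs were searched on both strands in the 250 bases before and 50 after the start of 33 nuclear members matched by symbol in the RefSeq table. NRF-1, a factor known for respiratory genes, had its motif GCATGCGC in 8 of them (24.2%, beside 3.05% of 27025 genes): Atp5g2, Atp5k, Atp5l, Cox6a1, Cycs, Sdhb, Uqcr11 and Uqcrc1. The CRE was in 2 (6.06% beside 2.03%), Cycs and Uqcrfs1. A GABP motif, CCGGAAGT, was in 4 (12.1% beside 4.31%): Atp5h, Cox8a, Uqcr11 and Uqcrh. Of the 8 with an NRF-1 motif, Cycs alone was called, and Atp5g2 was not tested. Matches of letters are descriptions and say nothing of factor binding in these cells. Symbols of Atp5a1, Cox4i1, Cox6c, Cyc1, Sdhc, Uqcrb, Uqcrc2 and Uqcrq were not matched.

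Cycs (chr6:50562563-50566538, GRCm38, minus strand) was at 225, 229 and 214 CPM in the TMRM-high libraries against 151, 170 and 167 CPM in the TMRM-low ones. The groups did not overlap, and the log2 fold change was 0.46 ± 0.08 (SE), a 1.37-fold difference (adjusted p = 0.00991 in edgeR's quasi-likelihood test). Without 1 TMRM-high library the adjusted p by that test was 0.0555 to 0.0782, and 0.649 with those libraries summed. The 315 coding bases of Cycs are identical in Gm10053, a copy on chromosome 19 that the annotation lists as protein-coding, so reads from the coding part cannot be assigned to either. Gm10053 was at 126 ± 0.972 CPM in TMRM-high against 93.8 ± 10.5 CPM in TMRM-low (SD, n = 3 each), and it was also higher (log2 fold change 0.42 ± 0.10 SE, adjusted p = 0.0395, edgeR's quasi-likelihood test). With the counts of both genes added the log2 fold change was 0.45 ± 0.07.

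Complex IV reduces oxygen to water. None of its 14 genes passed, beside 11% of all genes tested, and the median was -0.05, with 6 above 0 and 8 below. The 3 mitochondrially encoded subunits form its catalytic core. mt-Co1 was the most abundant gene of all members by CPM, at 17584, 19251 and 19102 in TMRM-high against 14834, 16004 and 17262 in TMRM-low. mt-Co3 was at 12519, 13220 and 13115 against 10775, 11755 and 12270 CPM, and in neither gene did the groups overlap. mt-Co2 was at 6193, 6600 and 6548 against 5576, 6289 and 6143 CPM, where TMRM-low replicate 2 reached into the TMRM-high range. The log2 fold changes were 0.22 ± 0.06 for mt-Co1, 0.16 ± 0.05 for mt-Co3 and 0.10 ± 0.05 for mt-Co2 (SE), with adjusted p = 0.0624, 0.0972 and 0.281 in edgeR's quasi-likelihood test. Without TMRM-low replicate 1 the log2 fold change of mt-Co2 was 0.06.

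Of the 11 nuclear genes of complex IV, 3 were above 0 and 8 below, with a median of -0.08. Cox6a1, a regulatory subunit, was at 233, 215 and 217 CPM against 291, 243 and 283 CPM. Cox4i1, the largest nuclear subunit and the most abundant one by CPM, was at 618, 581 and 589 against 704, 683 and 636 CPM. In both, every TMRM-high library was below every TMRM-low library, with log2 fold changes of -0.30 ± 0.09 and -0.18 ± 0.06 (adjusted p = 0.0675 and 0.0945, edgeR's quasi-likelihood test). The remaining ones ran from -0.13 for Cox5a to 0.20 for Cox7a2, a small structural subunit, and Ndufa4 was at -0.05. Cox4i1 overlaps Emc8 on the opposite and Gm20388 on the same strand. The summed nuclear genes were at 3101 to 3223 CPM against 3288 to 3390 CPM, 5.47% lower in TMRM-high, while the 3 mitochondrial ones together were 13.1% higher (36296 to 39070 against 31185 to 35675 CPM). Cox7a2l was at 235, 240 and 244 against 244, 256 and 244 CPM, with groups that overlapped.

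Complex V held 4 of the 6 calls. Of its 16 tested genes 1 was higher and 3 were lower, which is 25% called beside 11% of all genes. The median was -0.13, beside -0.03 for all genes, and 13 of the 14 tested nuclear genes had a log2 fold change below 0. By the sectors of the enzyme, a grouping made after the values were seen, the 3 lower genes were all among the 5 of the F1 head: Atp5a1, Atp5c1 and Atp5d encode its alpha, gamma and delta subunits. The F1 median was -0.27, beside -0.07 for 4 genes of the peripheral stalk and -0.05 for 5 tested nuclear genes of the membrane part, where none passed.

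Atp5d, in the central stalk (chr10:80138632-80145818, plus strand), was at 205, 188 and 194 CPM in TMRM-high against 268, 252 and 253 CPM in TMRM-low. Atp5c1, the shaft that turns inside the head (chr2:10056016-10080510, minus strand), was at 299, 297 and 289 against 353, 335 and 380 CPM. Atp5a1, which alternates with the catalytic beta subunit in the head (chr18:77773729-77782869, plus strand), was at 674, 652 and 681 against 914, 752 and 815 CPM. In all 3 the groups did not overlap. The log2 fold changes were -0.40 ± 0.07, -0.27 ± 0.07 and -0.31 ± 0.07 (SE), so levels in TMRM-low were 1.32-fold, 1.21-fold and 1.24-fold those in TMRM-high, with adjusted p = 0.0107, 0.0396 and 0.0395 in edgeR's quasi-likelihood test. Without 1 TMRM-high library these adjusted p were 0.0518 to 0.0893 for Atp5d, 0.164 to 0.209 for Atp5c1 and 0.151 to 0.182 for Atp5a1. Atp5a1 was also not called without TMRM-low replicate 3. Atp5c1 was not called without TMRM-low replicate 1, with no low-count filter, or with the replicate number as a block. Atp5d overlaps Cbarp and Atp5a1 overlaps Haus1, both on the opposite strand.

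The catalytic beta subunit gene, Atp5b, did not pass. It was at 902, 905 and 947 CPM against 1050, 955 and 1081 CPM, with no overlap and a log2 fold change of -0.16 ± 0.06 (adjusted p = 0.124, edgeR's quasi-likelihood test). The fifth F1 gene, Atp5e, overlapped between groups at -0.15. Atp5o, the stalk subunit that caps the head, was at 214, 205 and 207 against 302, 255 and 241 CPM, without overlap, and lay just outside the threshold (-0.35 ± 0.09, adjusted p = 0.0529, edgeR's quasi-likelihood test). Atp5o also shares words with pseudogenes and with a second annotated locus of that name on chromosome 16. The other stalk genes, Atp5f1, Atp5h and Atp5j, ran from -0.11 to 0.00, and in the membrane Atp5g1, Atp5g3, Atp5j2, Atp5k and Atp5l from -0.16 to 0.00. The summed F1 genes were at 2216 to 2280 CPM in TMRM-high against 2489 to 2802 CPM, 15.4% lower.

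**Figure D3:**
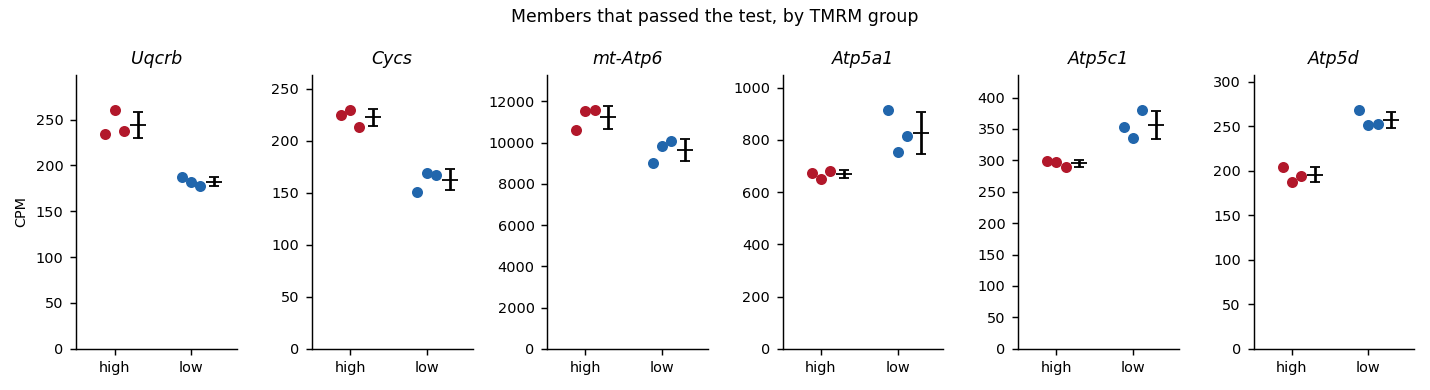
CPM of the 6 members that passed the test in each library (points, TMRM-high red, TMRM-low blue), with the mean and SD of 3 libraries per group in black. All axes start at 0, and in none of the 6 do the groups overlap.

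Atp5g2 is 1 of 3 genes for the c subunit of the rotor ring. Coding starts of 3 members are shown because each coding sequence is identical, base for base, in a copy elsewhere in the genome, with the start codon in capitals (GENCODE M21):
Atp5g2: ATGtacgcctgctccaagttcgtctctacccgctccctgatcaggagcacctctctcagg
Cycs: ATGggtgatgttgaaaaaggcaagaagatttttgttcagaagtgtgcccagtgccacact
Cox7c: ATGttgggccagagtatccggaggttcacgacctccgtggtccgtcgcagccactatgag

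All 438 coding bases of Atp5g2 are identical in Gm10231, a processed pseudogene on chromosome 17. Gm10231 was at 328, 304 and 311 CPM in TMRM-high against 363, 337 and 309 CPM in TMRM-low, while Atp5g2 (chr15:102662864-102672352, minus strand) was listed at 0 in all 6. The groups of Gm10231 overlapped and it did not pass (-0.10 ± 0.08, adjusted p = 0.492, edgeR's quasi-likelihood test). How reads were divided between the pair was not tested, and the 0 does not show that Atp5g2 is silent. Of Cox7c, a small complex IV subunit, all 189 coding bases are shared with Gm12338 on chromosome 11. Cox7c was at 191 ± 2.67 and 178 ± 6.72 CPM and Gm12338 at 95.6 ± 0.0455 and 100.3 ± 22.7 CPM (SD, n = 3 each), neither called. With close copies added, the counts of members higher and lower were 3 and 3, but of the 6 called members Cycs alone gained more than 2 counts by it.

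The mitochondrially encoded members of complex V share bases. The stretch below (GRCm38, mitochondrial genome 7907 to 7989, plus strand) spans the end of mt-Atp8 and the start of mt-Atp6, and the capitals mark the 43 bases read in both frames:
mt-Atp8/mt-Atp6 overlap: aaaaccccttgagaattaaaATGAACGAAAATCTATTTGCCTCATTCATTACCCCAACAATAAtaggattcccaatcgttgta

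mt-Atp6 encodes the membrane channel for protons beside the rotor. It was at 10594, 11529 and 11562 CPM in TMRM-high against 9017, 9848 and 10060 CPM in TMRM-low, without overlap, with a log2 fold change of 0.22 ± 0.05 (SE), 1.16-fold (adjusted p = 0.0413, edgeR's quasi-likelihood test). It was not called without 1 TMRM-high library (adjusted p 0.0613 to 0.188 in that test), nor without TMRM-low replicate 1 or 2. mt-Atp8, a small subunit that holds the membrane part, was the only mitochondrially encoded member below 0: it was at 333, 342 and 363 CPM against 378, 607 and 400 CPM. The groups did not overlap, TMRM-low replicate 2 stood above the rest, and the difference did not pass (-0.42 ± 0.17, adjusted p = 0.172, edgeR's quasi-likelihood test). Without that library the log2 fold change was -0.17. The ratio of counts of mt-Atp6 to mt-Atp8 was 31.8, 33.7 and 31.9 in TMRM-high against 23.9, 16.2 and 25.2 in TMRM-low. Both are read from a shared transcript, and reads in the overlap cannot be assigned to either gene.

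**Figure D4:**
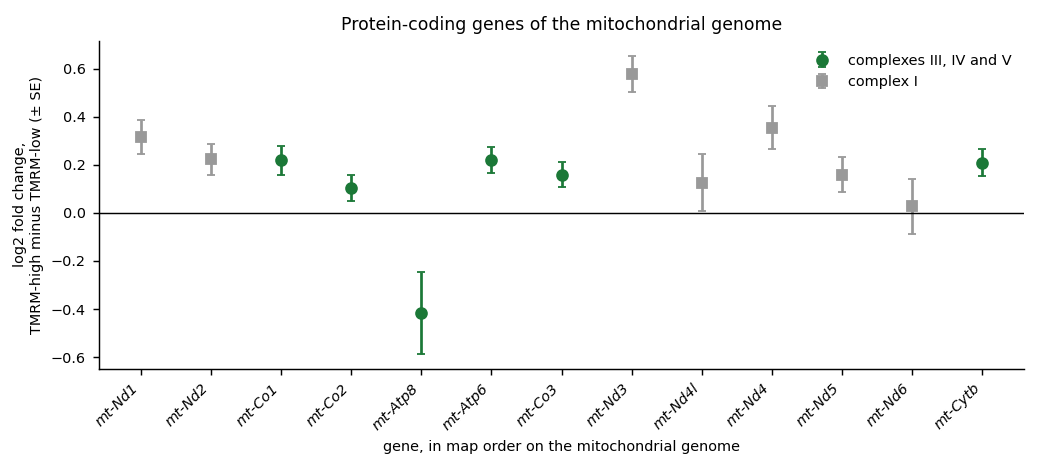
Log2 fold change (TMRM-high minus TMRM-low) ± SE of the 13 protein-coding genes of the mitochondrial genome in map order, members in green circles and complex I genes in grey squares. mt-Atp8, at -0.42 (-0.17 without TMRM-low replicate 2), is the only gene below 0 and lies between mt-Co2 at 0.10 and mt-Atp6 at 0.22. Reads in the bases that mt-Atp8 and mt-Atp6 share cannot be assigned to either gene.

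Divided by genome, the 6 mitochondrial members had a median log2 fold change of 0.18 and 5 of 6 were above 0, while the 40 tested nuclear members had a median of -0.08 with 10 above and 30 below. Of the mitochondrial members 1 was called higher (16.7%), and of the nuclear ones 2 were higher and 3 lower (12.5%). Over all genes 11% were called, and the median was -0.03. Summed, the mitochondrial members were at 53979, 58375 and 58221 CPM in TMRM-high against 46582, 50641 and 52780 CPM in TMRM-low, 13.7% higher. The nuclear members were at 10867, 10571 and 10696 CPM against 11474, 11263 and 11415 CPM, 5.91% lower. Neither sum overlapped between groups. CPM are shares of a library, so these sums do not give RNA per cell. With 3 libraries a group an exact permutation test cannot go below p = 0.1, so no p is given for sums or ratios.

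The ratio of mitochondrial to nuclear counts was higher in every TMRM-high than in every TMRM-low library for complexes IV and V: 11.3, 12.6 and 12.2 against 9.25, 10.0 and 10.9 in complex IV, and 2.47, 2.77 and 2.73 against 1.87, 2.18 and 2.15 in complex V. In complex III it was 3.50, 3.93 and 4.03 against 3.16, 3.30 and 3.55, where the groups met, since the lowest TMRM-high library lay below the highest TMRM-low one. Over all members it was 4.97, 5.52 and 5.44 against 4.06, 4.50 and 4.62. Per kilobase of principal transcript, mean levels of the mitochondrial members in TMRM-high ran from 1695 CPM (mt-Atp8) to 16519 CPM (mt-Co3). On the transcript it shares with mt-Atp8, mt-Atp6 was at 16488 CPM per kilobase. How reads were divided between these 2 genes was not tested. Mean levels of the nuclear members in TMRM-high ran from 47.8 (Sdhc) to 779 (Cox4i1) CPM per kilobase of principal transcript. With the median length of coding transcripts in place of the principal one, Cox4i1 was still the highest nuclear gene, at 800 CPM per kilobase, and the lowest was Cycs, at 71.3. Nuclear copies of mitochondrial DNA share 63.9% of the words of mt-Co1, 100% of mt-Co2, 99.9% of mt-Co3 and 99.5% of mt-Atp6, so a part of their reads fits both places. The close copy of mt-Co1 in the deposited counts held 20 counts over the 6 libraries, beside 1868016 for mt-Co1. That of mt-Co2 held 12 beside 669492, and for mt-Co3 no gene sharing words was listed. How reads were divided was not tested.

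**Figure D5:**
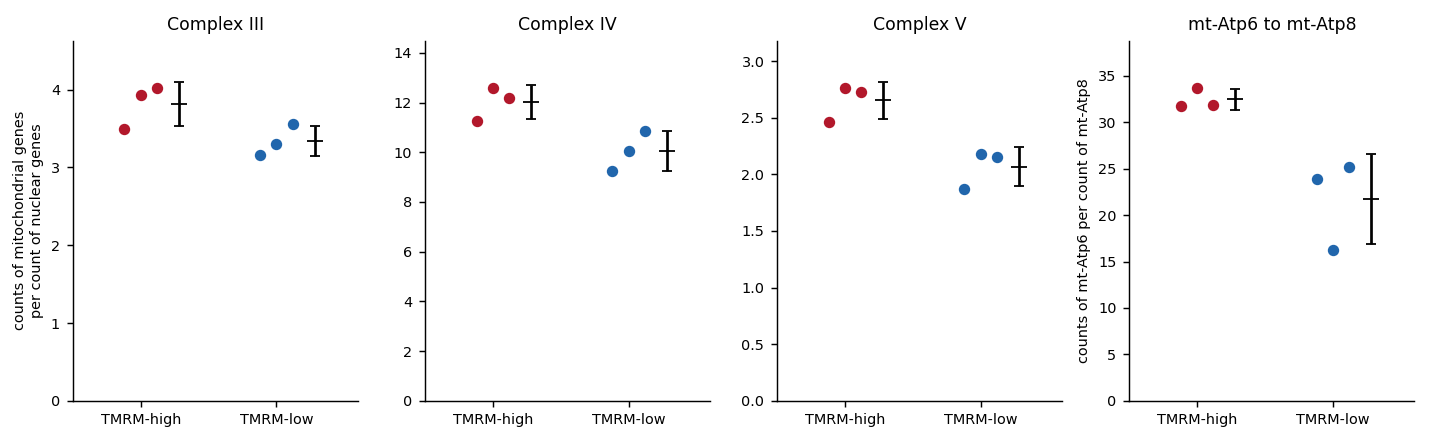
Counts of mitochondrially encoded genes per count of nuclear genes in complexes III, IV and V, and counts of mt-Atp6 per count of mt-Atp8, in each library (points) with the mean and SD of 3 libraries in black. In complexes IV and V and for mt-Atp6 to mt-Atp8 all TMRM-high points lie above all TMRM-low points.

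The 7 mitochondrially encoded genes of complex I all had a log2 fold change above 0 (median 0.22). Of these, 3 were higher in TMRM-high (42.9%, beside 11% of all genes called): mt-Nd3 (0.58 ± 0.07), mt-Nd4 (0.35 ± 0.09) and mt-Nd1 (0.32 ± 0.07). Their adjusted p were 0.00309, 0.0433 and 0.0298 in edgeR's quasi-likelihood test. Among 25 genes for the synthesis and processing of mitochondrial RNA, none was higher and 2 were lower (8%, beside 11% of all genes called). Their median was -0.05. Hsd17b10, a subunit of the enzyme that cuts tRNAs out of mitochondrial transcripts, was at 81.7, 79.5 and 86.3 CPM against 139, 142 and 143 CPM, groups far apart (-0.78 ± 0.08 SE, adjusted p = 0.00121 in edgeR's quasi-likelihood test). It was still called without any 1 TMRM-high library, though not with those libraries summed (adjusted p = 0.332). Slirp, which stabilises mitochondrial mRNAs together with Lrpprc, was at 57.8, 55.3 and 59.1 against 101, 78.3 and 79.0 CPM (-0.59 ± 0.13, adjusted p = 0.0324, edgeR's quasi-likelihood test). Lrpprc itself (-0.16), the packaging factor Tfam (-0.13) and the polymerase Polrmt (-0.10) did not pass. In this list 11 genes were above 0 and 14 below. Those furthest above 0 did not pass either: Tfb2m (0.90), Taco1 (0.86), Fastk (0.83) and Tbrg4 (0.68). For Fastk the adjusted p was 0.0544 in edgeR's quasi-likelihood test.

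Assembly factors were mostly uncalled, beside 11% of all genes called. For complex II it was 0 of 4, for complex III 0 of 6 and for complex V 0 of 4, with medians of 0.03, -0.23 and -0.09. All 6 factors of complex III had log2 fold changes below 0, from -0.46 to -0.19. Of 19 tested factors of complex IV, 1 was lower: Sco2, a copper chaperone, at 4.81, 3.44 and 3.33 CPM against 12.1, 11.9 and 10.9 CPM (-1.59 ± 0.34, adjusted p = 0.0237, edgeR's quasi-likelihood test). Sco2 overlaps Ncaph2 on the opposite and Tymp on the same strand, so its reads may not all be its own. Of 10 tested isoforms and accessory proteins 1 was lower, Cox4i2, a variant of Cox4i1 known from lung, at 1.22, 0.359 and 1.18 against 5.67, 5.12 and 4.30 CPM (-2.44 ± 0.61, adjusted p = 0.0416, edgeR's quasi-likelihood test). Sco2, Slirp and Cox4i2 were not called without any 1 TMRM-high library (adjusted p from 0.0925 to 0.182). Atpif1, the inhibitor of ATP synthase, was at 448 ± 3.47 and 454 ± 34.0 CPM (SD, n = 3 each), and the testis form of cytochrome c, Cyct, was listed at 0 in every library.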

How the data were processed

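RNA of 1500 sorted cells per library was reverse transcribed, amplified by PCR and tagmented, per the labels' protocols, which name no molecular identifiers. The authors deposited 1 table of estimated counts per gene for 6 libraries, partly not whole. The genome build GRCm38, Salmon (listed as 0.03.1) and Trim Galore 0.5.0 are named, per the submitters' processing notes. Annotation and settings: not given in the sources used here. Salmon divides reads among similar transcripts, so near copies can exchange counts.

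Counts were rounded, filtered with filterByExpr, scaled by TMM and fitted with edgeR 4.0.16 (glmQLFit robust, glmQLFTest, group only) in R 4.3.3. A call needed an adjusted p (Benjamini-Hochberg over 13662 genes) under 0.05. The SE was taken as |log2 fold change| over the root of F. CPM use TMM-scaled library sizes. The fit was tested on simulated data with planted changes larger than any among the members and the same spread in both groups. That test therefore says nothing of calls on changes as small as those of the members.

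Positions, overlaps and lengths are from GENCODE M21, and overlaps are of whole gene spans, introns included. Levels per kilobase were computed with both the principal transcript and the median length of coding transcripts, since neither was set in advance. A near copy shares 31-base words with a member, at least 25% for addition. Protein-coding genes other than Gm10053 were not added. Members, lists and tests were chosen with earlier results of these data known. Named with values are called and mitochondrially encoded members, up to 3 uncalled members per complex with the smallest p, the most abundant gene by CPM, and called genes of the other lists (up to 4 each). The near copies, the sectors of complex V and other genes outside that rule were chosen after their values were seen. Alternatives were other scalings and filters, a block for the replicate number, DESeq2 1.42.0, voom with sample weights (limma 3.58.1), TMRM-high libraries summed, each library left out, and near copies added (chosen after seeing the data).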

Additional observations from a re-analysis of the deposited data

How the results depend on the processing

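The counts of members higher and lower, 3 and 3, were the same with RLE and upper-quartile scaling, without mitochondrial genes in the library sizes and with near copies added (which altered the counts of Cycs alone, among called members, by more than 2), and were 3 and 4 with total-count scaling and 4 and 4 with a mean count of at least 50. They were 5 and 3 with no low-count filter, 7 and 7 with DESeq2, 5 and 5 with limma voom, 7 and 7 at an adjusted p below 0.10, and 0 and 0 with the TMRM-high libraries summed. With 1 library left out, higher calls ranged from 0 to 8 and lower calls from 0 to 6. Both were 0 without any 1 TMRM-high library, where calls over all genes also dropped, from 798 higher and 700 lower to 250 to 269 and 181 to 198, with 1 sample fewer; summing left 80 and 34. Without 1 TMRM-low library calls over all genes were 1218 to 1398 and 985 to 1174, members higher were 8 without replicate 3 and members lower 6 without replicate 2. DESeq2 called 1463 and 1464 genes, and limma voom 774 and 862. With no low-count filter 798 and 656 genes were called, Atp5c1 was not called, and Atp5o was called lower. The share of all genes at an adjusted p below 0.10 is not given here. With the replicate number as a block 6 members were higher and 2 lower (582 and 449 genes), and Atp5c1 was not called. Deviations of same-numbered libraries from their group means correlated at -0.01 to 0.01. The labels state no pairing, and with 3 libraries a group these correlations cannot show whether same-numbered libraries share mice or a sort. Sdha, at 0.05, ranged from -0.0043 (without TMRM-low replicate 1) to 0.11 (without TMRM-low replicate 3). The median of complex III, -0.02, moved to 0.04 without TMRM-low replicate 1. Causes were not tested.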
